A study of Mus musculus with 24 samples.

Results

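Chchd10 was silenced by siRNA in S/S lung tumour cells, and the response was taken from 8 of the 24 RNA-seq libraries of the study: 4 that had received an siRNA against Chchd10 (siChchd10) and 4 that had received a control siRNA (siControl). All genes of the siRNA count table were used, and the libraries were chosen by their labels, not by their values. The cells were primary mouse lung adenocarcinoma cells in culture, sorted beforehand for GFP and against CD45, which marks leukocytes. S/S cells are labelled WT and carry the unaltered eIF2α, so both groups share that genotype and differ by the siRNA. A/A cells of the study, whose eIF2α cannot be phosphorylated, served here for the shared estimate of the spread and for a single test of the difference between genotypes. The labels give neither the number of siRNA sequences, nor the time after transfection, nor whether each library was a culture of its own, so p-values measure the spread between these libraries. Any action of the siRNA on other transcripts cannot be told apart from that of losing Chchd10.

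CHCHD10 is a small protein of the mitochondrial intermembrane space that carries a twin cysteine motif, pairs with CHCHD2 and associates with the machinery that shapes cristae. Mitochondrial damage can be relayed to the cytosol by the protease OMA1 and the messenger DELE1, which activates an eIF2α kinase. Phosphorylated eIF2α then favours translation of the transcription factor ATF4, which drives genes of amino acid synthesis, amino acid import and tRNA charging. Mitochondrial nucleic acids that leak into the cytosol can also reach sensors that induce interferons and, through a complex that holds STAT2 and IRF9, the interferon-stimulated genes. In lung adenocarcinoma, tumour cells can leave the alveolar type 2 identity and take on gut, liver-type or mesenchymal programmes.

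The 8 libraries held 42863650 to 53032347 counts. Levels are given as CPM, the count of a gene relative to the total of its library, scaled by TMM, a normalisation between libraries. They are not divided by gene length, so levels of different genes are not compared. The first principal component of the S/S libraries held 50.9% of the variance and separated the groups, with siControl at -19.0 to -16.1 and siChchd10 at 15.3 to 18.9. The epithelial identity was present in every library: Epcam, Cdh1, Krt8, Krt18 and Krt19 together measured 5250 to 5860 CPM in siControl and 5870 to 6280 CPM in siChchd10. Of 9 alveolar type 2 markers, the surfactant gene Sftpc, the most specific of them, measured 0 to 0.064 CPM in siControl and 0 to 0.0798 CPM in siChchd10, close to absent, while Abca3 and Nkx2-1 were present. Ptprc, which encodes CD45, measured 0.0780 to 0.239 CPM over the 8 libraries. Of 19 leukocyte markers 7 were tested and 0 passed, 2 markers, Adgre1 among them, were at 0 in all 8 libraries, and their sum ran from 153 to 163 CPM in siControl and from 159 to 173 CPM in siChchd10, nearly all of it Mrc1 and Cd14. Fibroblast markers summed to 4.78 to 5.59 against 5.45 to 7.63 CPM, with 1 of 4 tested higher, 1 lower and Dpt and Tcf21 at 0. Endothelial markers summed to 23.4 to 25.9 against 26.9 to 34.6 CPM, with 2 of 5 tested higher, and the airway, basal and neuroendocrine markers to 16.2 to 19.8 against 12.4 to 14.6 CPM, with 1 of 8 higher, 1 lower and Calca, Cyp2f2, Krt5 and Neurod1 at 0. The part of other cells in the results was not tested beyond these levels. In bulk RNA, fewer cells of a kind and less RNA per cell cannot be told apart.

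Of 18138 genes tested, 28% had a Benjamini-Hochberg adjusted p under 0.05 in edgeR's quasi-likelihood test. "Rose" and "fell" below mean past that threshold. The rises made up 15% of the genes tested and the falls 13.0%, and these shares are the background for every count of list members. Most changes were small: the median size of a called change was 0.30 on the log2 scale, and 74.2% of the called genes changed by less than 1.5-fold. Rises of at least 2-fold made up 2.14% and falls of at least 2-fold 1.16%. In 25.5% of the genes tested the 4 libraries of one group all lay on one side of the other 4, whether or not the gene passed. The median log2 fold change of all genes was 0.00, so list medians can be read against it.

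**Figure D1:**
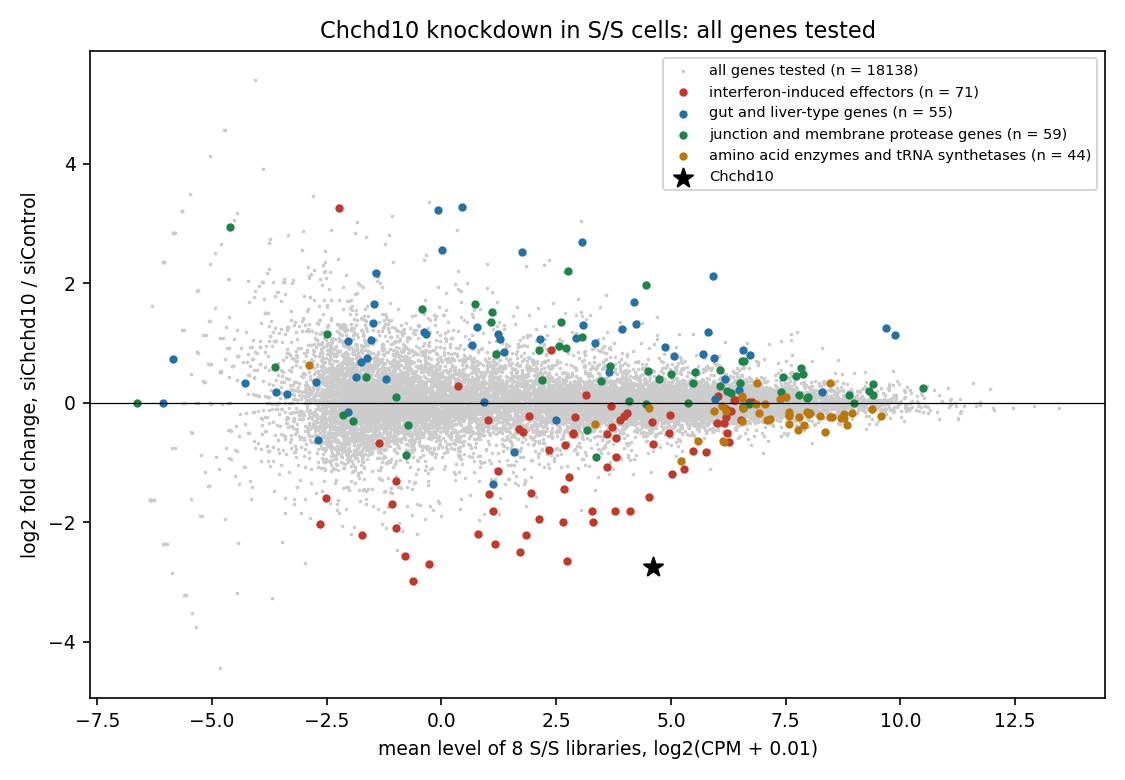
Each point is a gene, with its mean level over the 8 S/S libraries as log2(CPM + 0.01) on the horizontal axis and its log2 fold change, siChchd10 over siControl, on the vertical axis. Interferon-induced effectors (red, 71 genes) lie mostly below 0, gut and liver-type genes (blue) and junction and membrane protease genes (green) mostly above it, and amino acid enzymes and tRNA synthetases (ochre) slightly below it; the star marks Chchd10 at -2.76.

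Promoter sequences are shown for 4 interferon-stimulated genes among the largest falls, because their start regions share the element that the complex with STAT2 and IRF9 is known to bind. Each stretch is the 160 bases before a RefSeq start site in GRCm38.p6, the assembly called mm10, written 5′ to 3′ on the gene's own strand. Start sites whose stretch held no match were not shown. Capitals mark the core of that element, GAAA, any 2 bases and GAAA again, searched on both strands, so that it also reads TTTC, any 2 bases and TTTC. Overlapping matches are run together. The windows are chr19:34640729-34640888 (plus strand) for Ifit1, chr19:34583369-34583528 (plus strand) for Ifit3, chr4:156200819-156200978 (minus strand) for Isg15 and chr5:120777660-120777819 (minus strand) for Oas3. The Ifit3 window lies inside the annotated gene (34583119 to 34588982), before a start site further in. The Oas3 window overlaps the start of its gene, which is annotated up to 120777684.
Ifit1: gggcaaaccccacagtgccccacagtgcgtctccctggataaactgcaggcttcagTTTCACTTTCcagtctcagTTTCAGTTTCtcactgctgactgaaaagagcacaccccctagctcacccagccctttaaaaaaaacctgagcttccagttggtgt
Ifit3: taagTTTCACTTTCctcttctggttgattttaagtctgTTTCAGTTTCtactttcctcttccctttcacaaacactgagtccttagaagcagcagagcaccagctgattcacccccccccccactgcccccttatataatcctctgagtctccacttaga
Isg15: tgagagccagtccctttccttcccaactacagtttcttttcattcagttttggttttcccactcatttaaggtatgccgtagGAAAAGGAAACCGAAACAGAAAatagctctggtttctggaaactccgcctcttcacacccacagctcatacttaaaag
Oas3: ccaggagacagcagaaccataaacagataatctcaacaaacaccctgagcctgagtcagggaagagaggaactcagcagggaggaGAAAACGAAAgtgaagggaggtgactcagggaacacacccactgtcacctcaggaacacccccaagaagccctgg
Ifit1 and Ifit3 hold 2 matches each, Isg15 3 overlapping ones and Oas3 1, the last of these starting 75 bases before the start site. Over windows of 250 bases before to 50 bases after the start site, 33 of the 55 interferon-induced effectors with a RefSeq window held the core, against 466 of the 12978 tested genes with one (3.59%) and 3.44% of all windows. Among all genes that fell 5.69% held it, and among all that rose 2.94%. A match describes these letters and is not evidence of binding.

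Chchd10 itself (chromosome 10, 75933130 to 75937750) measured 40.6, 45.5, 38.1 and 46.0 CPM in siControl replicates 1 to 4 and 6.69, 5.34, 6.33 and 6.82 CPM in siChchd10. The groups did not overlap, and the knockdown left 14.8% of the control level (log2 fold change -2.76, SE 0.0963, adjusted p = 5.12e-16). Its partner Chchd2 did not follow: it measured 251, 208, 219 and 241 CPM in siControl and 218, 218, 227 and 256 CPM in siChchd10 (0.00, adjusted p = 0.988). The twin-CHCH list also holds assembly factors, small import chaperones, subunits of the respiratory chain, Gfer and Aifm1. Of its 27 genes besides Chchd10, 1 rose, 3 fell and 23 did not pass, and the median of the whole list was 0.00. Cox19, an assembly factor of cytochrome oxidase, rose from 16.1 to 19.0 CPM in siControl to 20 to 24.6 CPM in siChchd10 (0.30, adjusted p = 0.000661), and no library of one group reached the other. Timm8a1, a chaperone for import into the inner membrane, fell by 0.31 (adjusted p = 0.00822), with overlapping groups. The import receptor gene Chchd4 stood at -0.02 (adjusted p = 0.815), and Chchd3, a subunit of the cristae scaffold, at -0.07 (adjusted p = 0.264). Of 20 cristae, dynamin and prohibitin genes 2 fell and 0 rose, and Oma1 stood at -0.11 (adjusted p = 0.161). The falls were Opa1 (-0.11), the fusion dynamin, and Chchd6 (-0.21), and neither call held without single libraries. Opa1 had an adjusted p of 0.0576 without S/S siControl 3 and of 0.0529 without S/S siChchd10 4, and Chchd6 of 0.0917 without S/S siControl 4 and of 0.0759 without S/S siChchd10 2.

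Of 80 nuclear subunits of complexes I to V, 2 rose and 6 fell, and the median was -0.05. The count of falls rested on single libraries, at 18 without S/S siControl 3, 17 without S/S siChchd10 4, 11 without S/S siControl 2 or S/S siChchd10 3, and 2 without S/S siControl 4, S/S siChchd10 1 or S/S siChchd10 2. Atp5a1, the catalytic partner subunit of ATP synthase, measured 675, 624, 640 and 685 CPM in siControl and 546, 538, 584 and 589 CPM in siChchd10, without overlap (-0.22, adjusted p = 0.00026). Of 75 mitochondrial ribosomal proteins 1 rose and 8 fell (median -0.03), and the 8 became 3 without S/S siControl 1 or S/S siChchd10 1 and 4 without S/S siControl 4 or S/S siChchd10 2. Without S/S siControl 4 there were 5 rises, more than the falls. Mrpl19, a protein of the large subunit, fell by 0.26 (adjusted p = 5.14e-05). Of 20 tricarboxylic acid cycle enzymes 6 fell and 0 rose (median -0.09). Cs, citrate synthase, measured 388 to 435 CPM in siControl and 342 to 363 CPM in siChchd10 (-0.23, adjusted p = 5.91e-05). Pdha1, a subunit of pyruvate dehydrogenase, fell by 0.24 and Idh3a, of isocitrate dehydrogenase, by 0.19.

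Among 20 mitochondrial chaperones and proteases 1 rose and 4 fell (median -0.06). Hspa9, which encodes mortalin, the main chaperone of the matrix, measured 807, 792, 759 and 811 CPM in siControl and 582, 606, 674 and 629 CPM in siChchd10 (-0.35, SE 0.0428, adjusted p = 3.05e-07). All 4 knockdown libraries lay below the lowest control. Pitrm1, a peptidase that degrades targeting sequences, fell by 0.26 and the intermembrane space protease gene Htra2 by 0.27, both without overlap. Of 13 mRNAs of mitochondrial DNA 3 rose and 0 fell (median 0.16). The rises were 23.1% of the list against 15% of all genes tested, which for 13 genes is close. CYTB, the cytochrome b of complex III, measured 2730, 2830, 2830 and 2550 CPM in siControl and 3290, 3670, 3610 and 3120 CPM in siChchd10 (0.32, adjusted p = 0.0082). ND2, a subunit of complex I, rose from 1330 to 1420 CPM to 1590 to 1780 CPM (0.28, adjusted p = 0.000313). ND4 was at 0.30 (adjusted p = 0.0459), a call lost in each of the 7 fits that left out an S/S library other than S/S siChchd10 4 (adjusted p 0.0725 to 0.128), while COX1 (-0.05, adjusted p = 0.621) and ND1 (-0.01, adjusted p = 0.9) did not pass. COX2, COX3, ATP6, ATP8, ND3 and ND4L had few counts, and nuclear copies of mitochondrial DNA can share their reads, so their values are uncertain. The list median of 0.16 is the value of ND4L and is uncertain as well.

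**Figure D2:**
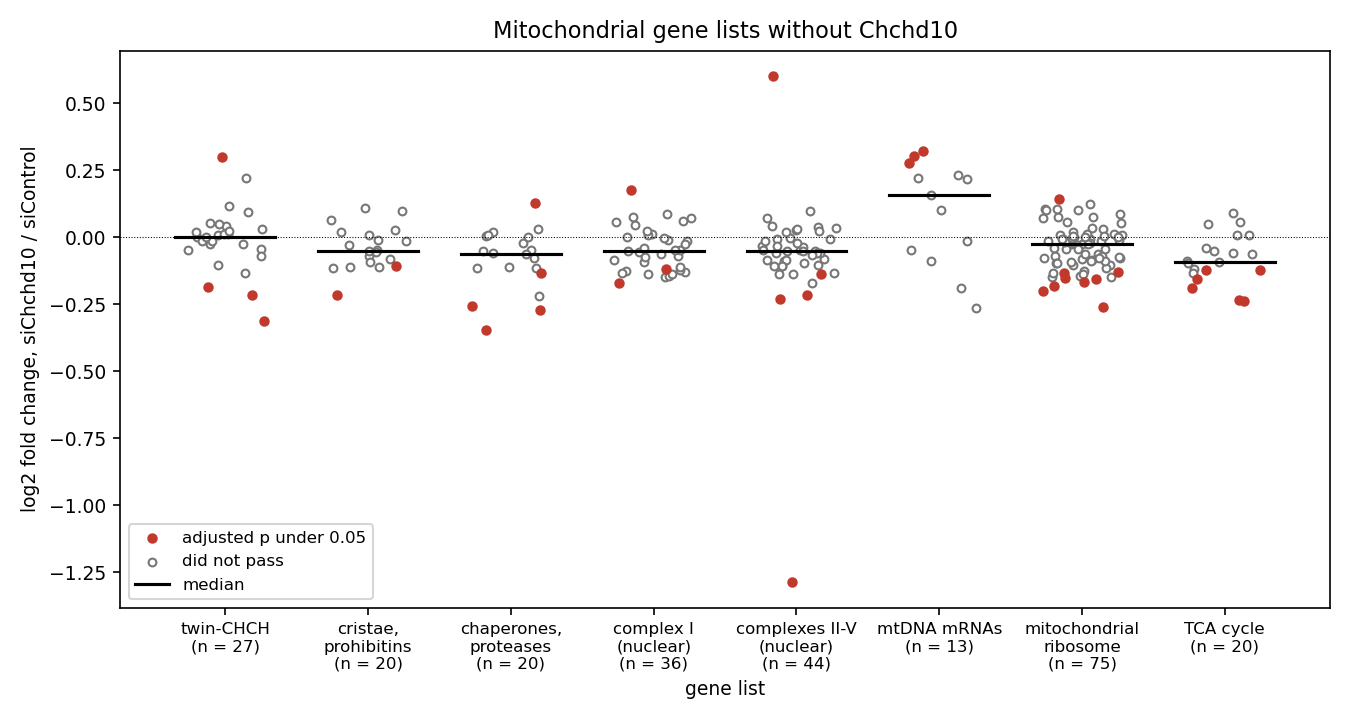
Each point is a gene of a mitochondrial list (horizontal axis), plotted by its log2 fold change, siChchd10 over siControl (vertical axis); filled red points had an adjusted p under 0.05, open points did not, horizontal positions within a list are arbitrary, and the black bar is the list median. Chchd10 itself is left out. The nuclear lists have medians between -0.09 and 0.00. The mRNAs of mitochondrial DNA have a median of 0.16, which is the value of ND4L, a gene with few counts.

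Of 18 eIF2α kinases, eIF2 and phosphatase subunits and stress factors, 9 fell, 2 rose and 7 did not pass (median -0.16). Atf4 measured 522, 555, 473 and 527 CPM in siControl and 433, 424, 478 and 463 CPM in siChchd10 (-0.21, adjusted p = 0.00495), and only siChchd10 3 overlapped the control range. Ddit3, the CHOP factor, fell from 19.7 to 29.9 CPM to 16.5 to 18.9 CPM (-0.41, adjusted p = 0.00112). Atf3, a stress-induced repressor, fell by 0.43 (adjusted p = 0.00192), Trib3, a pseudokinase that ATF4 induces, by 0.33 (adjusted p = 0.0059), and Cebpg, a dimer partner of ATF4, by 0.20 (adjusted p = 0.000117). The rises were Eif2ak3, the endoplasmic reticulum kinase PERK (0.13, adjusted p = 0.0287), and Cebpb, a C/EBP factor (0.18, adjusted p = 0.0277). Neither call held without single libraries: Eif2ak3 had an adjusted p of 0.0724 to 0.0858 without S/S siControl 2, S/S siControl 4, S/S siChchd10 1 or S/S siChchd10 2, and Cebpb of 0.0828 to 0.0975 without S/S siControl 1, S/S siControl 3, S/S siChchd10 1 or S/S siChchd10 4. Of the other eIF2α kinases, Eif2ak2, the double-stranded RNA sensor PKR, fell by 0.30 (adjusted p = 1.57e-05), Eif2ak4, which senses uncharged tRNA, stood at -0.02 (adjusted p = 0.798), and Eif2ak1, the kinase that DELE1 activates, at 0.10 (adjusted p = 0.0643). Dele1 stood at -0.08 (adjusted p = 0.151) and Eif2s1, which encodes eIF2α, at -0.11 (adjusted p = 0.0712). Gdf15, a secreted hormone of mitochondrial stress, measured 42.1, 63.8, 42.7 and 43.6 CPM in siControl and 34.9, 31.3, 33.2 and 34.4 CPM in siChchd10 (-0.53, adjusted p = 0.00379), and Nupr1 fell by 0.50. Those were 2 falls among 10 stress hormones and effectors, with 0 rises. Endoplasmic reticulum chaperones moved little, with 2 of 21 higher and 3 lower (median 0.03), Atf6 among them at -0.41 and Xbp1 at 0.17.

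Of 24 enzymes of amino acid synthesis and one-carbon metabolism 17 fell and 3 rose (median -0.23), and of 20 cytosolic tRNA synthetases 14 fell and 0 rose (median -0.18). Bcat1, the cytosolic branched-chain aminotransferase, measured 49.4, 49.4, 48.0 and 50.8 CPM in siControl and 22.6, 23.4, 27.2 and 27.5 CPM in siChchd10. It fell the most of the enzymes (-0.97, SE 0.0770, adjusted p = 1.03e-09), and its groups lay far apart. Cth, which makes cysteine from cystathionine, Aldh1l2, a mitochondrial folate dehydrogenase, and Pycr1, which makes proline in mitochondria, fell by 0.65, 0.65 and 0.63. Glul, glutamine synthetase, rose by 0.33 (adjusted p = 1.17e-05). Nars measured 509, 538, 483 and 516 CPM in siControl and 377, 383, 426 and 400 CPM in siChchd10 (-0.37, adjusted p = 1.22e-07). Lars (-0.36), Aars (-0.26) and Gars (-0.26) followed. The cystine transporter gene Slc7a11 fell by 0.56, its heavy chain partner Slc3a2 by 0.30 and the leucine importer Slc7a5 by 0.27, and of 17 amino acid transporters tested 3 fell and 3 rose, Slc43a2 (0.43) among the latter.

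The composite element to which ATF4 binds with C/EBP partners, TGATGCAA (or TTGCATCA on the other strand), was searched in the same windows. It lay in 4 of the 9 tRNA synthetases that fell and had a window (Aars, Iars, Tars and Yars) and in 2 of 14 such amino acid enzymes (Got1 and Pycr1), against 0.724% of the tested genes with a window. Whether or not they fell, 4 of 13 synthetases and 2 of 20 enzymes with a window held it. Among all genes that fell 1.03% held the element, and among all that rose 0.853%, so over all genes the shares were close. Stretches of 28 bases around the match, in capitals, are given for 2 genes named above, at chr11:120643834-120643861 (minus strand) for Pycr1 and chr1:191183426-191183453 (minus strand) for Atf3, to show the bases around the match. The matches start 103 and 110 bases before the start site, counting from the first capital.
Pycr1: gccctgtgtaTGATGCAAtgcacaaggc
Atf3: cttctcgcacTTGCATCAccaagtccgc
Got1, Iars, Tars and Yars were named for the match and not by the rule on named genes. As above, a match is a description of the letters.

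The interferon pathway was lower at the level of the induced genes and of some sensors and factors, and not at the receptors. Of 13 interferon ligand genes none reached the count needed for a test, and the highest total was 14 counts over the 4 siControl libraries, for Ifnk. Ifnb1 had 4 counts in all siControl and 3 in all siChchd10 libraries, so a change in ligand mRNA was not detectable at this depth. Of 6 receptor chains tested 2 rose and 0 fell: Ifngr1, of the type II receptor, by 0.19 and Ifnar2, of the type I receptor, by 0.17, while Ifnar1 stood at -0.09 (adjusted p = 0.141). Of 20 nucleic acid sensors and adaptors tested 8 fell and 2 rose (median -0.09). Ifih1, the long double-stranded RNA sensor MDA5, measured 56.2, 55.6, 60.3 and 53.6 CPM in siControl and 32.9, 31.7, 33.4 and 30.8 CPM in siChchd10 (-0.81, SE 0.0460, adjusted p = 8.05e-14). All 4 knockdown libraries lay well below the controls. Dhx58, the regulatory helicase LGP2, fell by 1.86, Ifi204, a DNA sensor, by 0.70, and Cgas, the cytosolic DNA sensor, by 0.43 (adjusted p = 8.42e-05). Ddx58, the sensor RIG-I, fell by 0.29. The adaptors and kinases downstream did not fall: Mavs stood at 0.06 (adjusted p = 0.385) and Tbk1 at 0.01 (adjusted p = 0.838), and Ikbke, a kinase related to Tbk1, rose by 0.42.

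Among 17 JAK-STAT factors, interferon regulatory factors and feedback genes 7 fell and 4 rose (median -0.01). Irf7, which amplifies interferon induction and is itself induced, measured 4.58, 7.05, 4.54 and 5.78 CPM in siControl and 1.96, 1.58, 1.46 and 1.69 CPM in siChchd10 (-1.72, SE 0.140, adjusted p = 1.48e-10). The lowest control stood above the highest knockdown library. Irf9 (-0.71) and Stat2 (-0.20), which belong to the complex that binds the element shown above, fell too, as did the feedback protease gene Usp18 (-0.30). Stat3 (0.22), Jak2 (0.31) and Socs3 (0.19), which serve cytokine signals other than interferon as well, rose. Irf3, the factor that Tbk1 activates, stood at 0.03 (adjusted p = 0.608).

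Of 71 interferon-induced effectors tested 56 fell (78.9%) and 3 rose (4.23%), with a median of -0.69, and 30 fell at least 2-fold. Ifit1, which binds foreign capped RNA, measured 26.8, 25.3, 28.1 and 27.2 CPM in siControl and 8.50, 7.18, 8.26 and 6.66 CPM in siChchd10 (-1.81, SE 0.0737, adjusted p = 1.54e-16). Isg15, the ubiquitin-like modifier, measured 10.8, 14.1, 12.5 and 13.7 CPM against 3.69, 3.51, 3.51 and 3.94 CPM (-1.80, adjusted p = 2.1e-14). In both genes the knockdown libraries lay far below the controls and close to each other. Genes of the 2-5A synthetase family and their OAS-like relatives fell, Oas2 by 2.71, Oas3 by 2.65, Oasl2 by 1.57 and Oasl1 by 1.11, and the members of this family can share reads. Cxcl10, a chemokine for T cells, measured 42.6, 44.8, 45.7 and 47.3 CPM in siControl and 19.0, 18.4, 21.5 and 20.5 CPM in siChchd10 (-1.19, adjusted p = 2.42e-15). Ifi44 and Trim30a fell by 2.98 and 2.56 from about 1 CPM. Mx1, the dynamin-like antiviral GTPase, went against its group: it measured 0.0709, 0.0185, 0.0570 and 0 CPM in siControl and 0.271, 0.279, 0.331 and 0.584 CPM in siChchd10 (3.27, adjusted p = 4.96e-06), a rise at very low counts. Slfn8 rose by 0.88, and its neighbour genes are near-identical copies that can share reads.

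**Figure D3:**
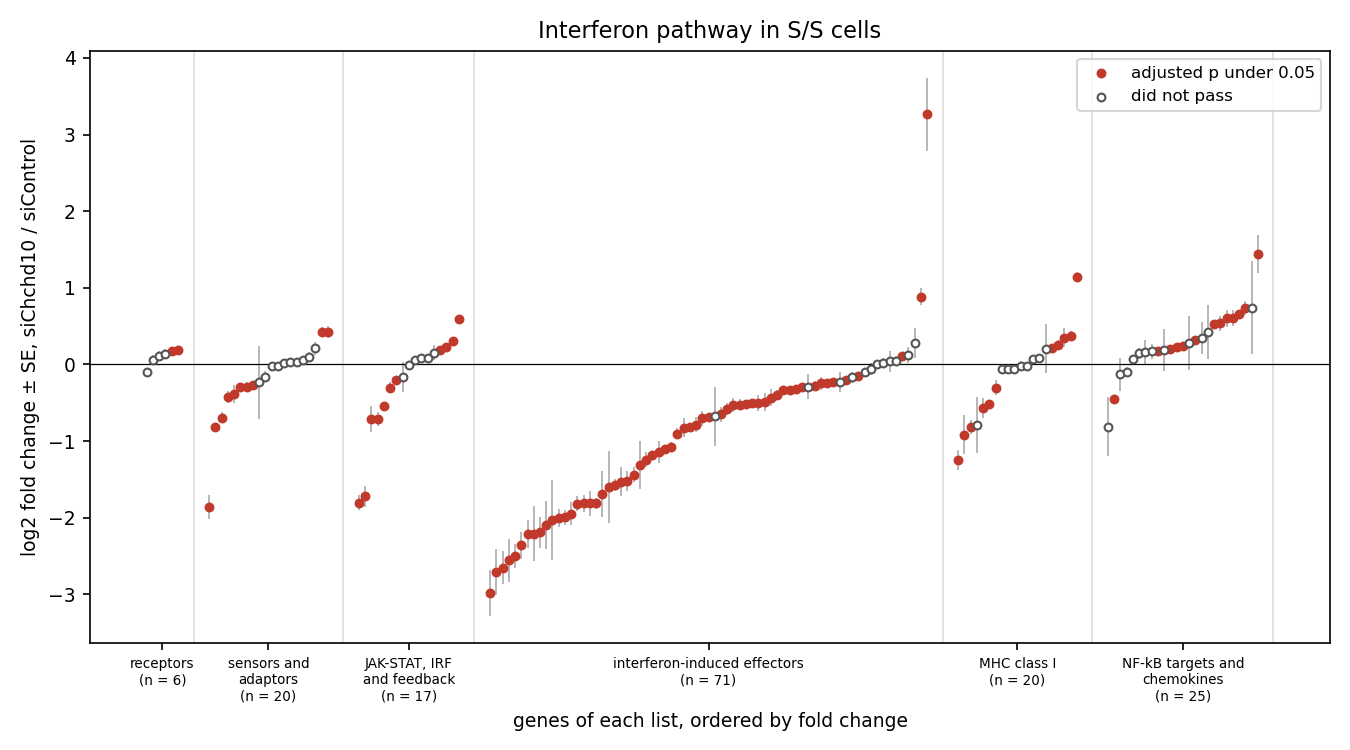
Genes of 6 lists of the interferon and inflammatory pathways are ordered within each list by log2 fold change, siChchd10 over siControl (vertical axis, with SE); red points had an adjusted p under 0.05 and open points did not. The effectors run from -2.98 (Ifi44) to 3.27 (Mx1), with 56 of 71 red and below 0, whereas the NF-kB targets and chemokines lie mostly above 0. That last list leaves out the chemokine gene Cxcl10, which fell.

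Of 20 MHC class I genes 6 fell and 5 rose (median -0.04): Nlrc5, the transactivator of the class (-1.25, adjusted p = 1.38e-08), the immunoproteasome gene Psmb8 (-0.91) and the peptide transporter gene Tap1 (-0.57) fell. H2-T23, the non-classical molecule Qa-1, measured 16, 16.9, 14.8 and 17.3 CPM in siControl and 36.9, 35.6, 32.2 and 38.9 CPM in siChchd10 (1.14, adjusted p = 3.7e-12), although MHC genes resemble each other and can share reads. Of 25 NF-kB targets, chemokines and colony stimulating factors 12 rose and 1 fell (median 0.24). Cxcl16 measured 31.3, 30.8, 26.4 and 29.5 CPM in siControl and 45.2, 43.5, 48.5 and 49.2 CPM in siChchd10 (0.66, adjusted p = 2.44e-10). Ccl9 (0.74) and Ccl20 (0.60), which attract myeloid cells and lymphocytes, rose. The macrophage growth factor gene Csf1 was the one member that fell (-0.45, adjusted p = 1.98e-08). The chemokine gene Cxcl10 (-1.19), described with the effectors, was not a member of this list, so its fall is not in that count. Complement genes gave 4 rises and 3 falls of 17, with C3, the central component, at 147, 94.8, 115 and 128 CPM in siControl and 309, 291, 216 and 264 CPM in siChchd10 (1.16, adjusted p = 0.0034) and Cfb, of the alternative pathway, at 0.98.

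**Figure D4:**
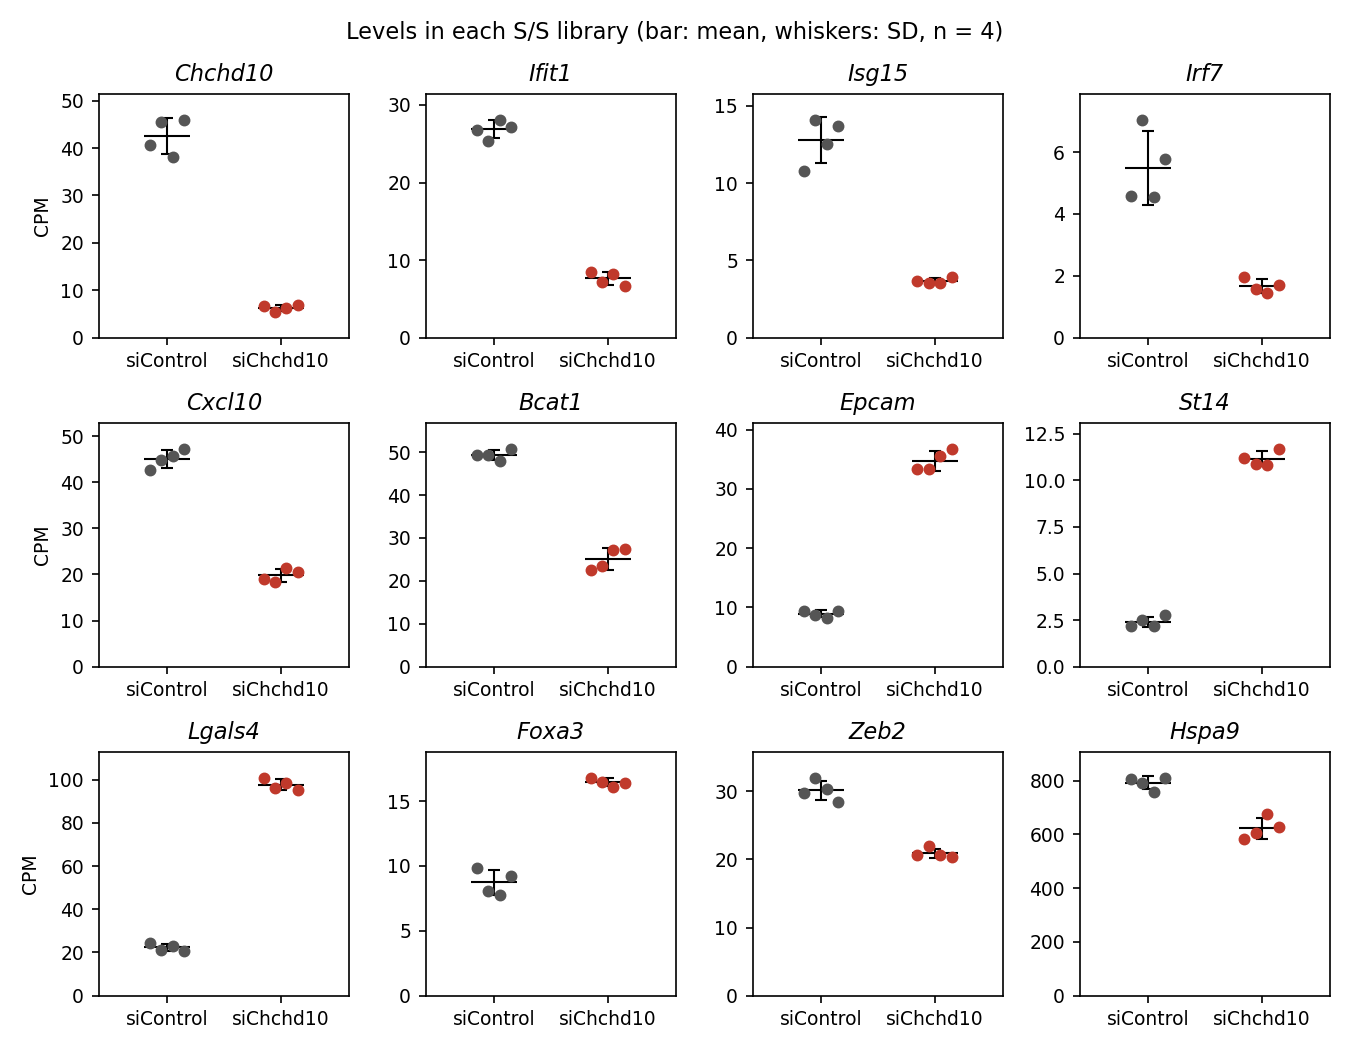
The level of 12 genes in each S/S library (points, CPM on a linear axis from 0) is shown for siControl (grey) and siChchd10 (red), with the mean and SD of 4 libraries. In each of the 12 panels the groups do not overlap: Chchd10, Ifit1, Isg15, Irf7, Cxcl10, Bcat1, Zeb2 and Hspa9 are lower and Epcam, St14, Lgals4 and Foxa3 higher after siChchd10.

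Of 15 membrane serine proteases, their inhibitors and substrates 9 rose and 0 fell (median 0.60). St14, which encodes matriptase, measured 2.20, 2.48, 2.19 and 2.75 CPM in siControl and 11.2, 10.9, 10.8 and 11.7 CPM in siChchd10 (2.21, SE 0.118, adjusted p = 2.16e-14). Epcam, an adhesion molecule that matriptase can cleave, measured 9.45, 8.76, 8.15 and 9.35 CPM against 33.4, 33.4, 35.5 and 36.8 CPM (1.96, SE 0.0860, adjusted p = 1.13e-15). Both sets of knockdown libraries stood more than 3-fold above the highest control. Prss8, or prostasin, the protease that acts with matriptase, rose by 1.51, their inhibitors Spint1 and Spint2 by 1.34 and 0.45, and the sodium channel subunit gene Scnn1a, a substrate, by 0.89. Of 24 tight junction genes 15 rose and 1 fell (median 0.39), and of 20 adherens junction and desmosome genes 13 rose and 1 fell (median 0.20). The claudin genes Cldn7 (1.65) and Cldn4 (1.10), the tight junction gene Marveld3 (0.95) and the desmosome genes Pkp3 (1.36), Perp (0.70), Dsp (0.59) and Dsg2 (0.54) rose. Perp measured 75.6, 75.4, 68.3 and 74.6 CPM in siControl and 113, 119, 122 and 123 CPM in siChchd10 (adjusted p = 3.58e-13). Cldn15, a claudin of gut epithelium, fell by 0.87 at under 1 CPM.

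Of 14 epithelial factors 8 rose and 1 fell (median 0.24), and of 10 mesenchymal factors 7 fell and 0 rose (median -0.39). Grhl3, a grainyhead factor of surface epithelia, rose from 0.725 to 0.922 CPM to 2.05 to 2.87 CPM (1.49, adjusted p = 1.02e-07). Elf3, an epithelial ETS factor, measured 21.7, 17.5, 20.1 and 22.3 CPM in siControl and 29.3, 30.2, 28.5 and 29.5 CPM in siChchd10 (0.53, adjusted p = 6.47e-08), and the splicing factor Esrp2 rose by 0.28. Klf4 (0.01, adjusted p = 0.896), Klf5 (0.03, adjusted p = 0.792) and Ehf (0.09, adjusted p = 0.58) did not pass, and Tfcp2l1 fell by 0.32. Zeb2, a repressor of epithelial genes, measured 29.7, 32.0, 30.3 and 28.5 CPM in siControl and 20.7, 21.9, 20.7 and 20.4 CPM in siChchd10 (-0.53, adjusted p = 5.11e-09). Zeb1 (-0.31), Snai2 (-0.70), Twist2 (-1.27), Prrx1 (-1.08) and the chromatin protein gene Hmga2 (-0.32) fell too, while Snai1 (-0.10, adjusted p = 0.453) and Runx2 (0.01, adjusted p = 0.876) did not pass. None of the libraries of Zeb1, Zeb2, Snai2, Twist2 and Prrx1 overlapped between groups.

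Mesenchymal effectors were mixed, with 9 of 20 lower and 5 higher (median -0.13). Tgfb2, a ligand that drives mesenchymal transition, measured 22.6, 19.1, 18.2 and 19.4 CPM in siControl and 10.1, 11.2, 9.90 and 10.2 CPM in siChchd10 (-0.94, adjusted p = 1.17e-09), and Tgfb3 fell by 0.40. Gas6, the ligand of AXL, rose by 0.60. Of 27 laminin and integrin subunits 13 rose and 5 fell (median 0.07). Lamb3, which joins Lama3 in the laminin of epithelial basement membranes, measured 123, 137, 121 and 128 CPM in siControl and 264, 259, 266 and 264 CPM in siChchd10 (1.05, SE 0.0435, adjusted p = 1.57e-16). Its libraries varied little within either group, and Lama3, the partner chain, rose by 3.05. Itga5, of the fibronectin receptor, fell by 0.43. Of 26 collagen chains 8 rose and 5 fell (median 0.01), Col15a1 by 0.81 upward and Col8a1 by 0.52 downward.

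Of 30 gastric and intestinal genes 18 rose and 2 fell (median 0.85), and of 25 liver-type plasma protein and coagulation genes 18 rose and 0 fell (median 0.97). Lgals4, a galectin of gut epithelium, measured 24.5, 21.1, 23.2 and 20.8 CPM in siControl and 101, 96.2, 98.5 and 95.4 CPM in siChchd10 (2.13, SE 0.0532, adjusted p = 9.71e-22). Cdhr2, a protocadherin that links brush border microvilli, measured 8.93, 8.98, 7.98 and 8.75 CPM against 28.6, 27.8, 27.2 and 27.6 CPM (1.68, adjusted p = 1.76e-17). Both genes stood more than 3-fold above control in all 4 knockdown libraries. Phgr1, a small protein gene of colon epithelium, rose by 3.23 from under 0.3 CPM, and Fut2, which builds secretor blood group antigens, by 1.80. Anpep, the brush border aminopeptidase N, fell by 1.36 (adjusted p = 5.58e-06). Serpind1, heparin cofactor II, rose by 2.18 at under 1 CPM, and the prothrombin gene F2 by 2.53.

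Among the lineage factors some rose and the majority did not pass. Of 20 lung and gut lineage factors 7 rose and 0 fell (median 0.09). Foxa3, a factor of liver and gut, measured 9.83, 8.09, 7.79 and 9.22 CPM in siControl and 16.8, 16.5, 16.1 and 16.4 CPM in siChchd10 (0.92, adjusted p = 9.01e-11). Hnf4a, the master factor of liver and gut enterocytes, measured 242, 212, 235 and 237 CPM in siControl and 308, 305, 279 and 289 CPM in siChchd10 (0.35, adjusted p = 8.08e-07). Foxa1, a pioneer factor of endoderm, rose by 0.18. The lung factor Nkx2-1 (-0.09, adjusted p = 0.169), the intestinal factor Cdx2 (-0.08, adjusted p = 0.806) and Gata6 (-0.04, adjusted p = 0.651) did not pass. Of 16 alveolar type 2 genes 14 were tested: 8 rose, 1 fell and 5 did not pass (median 0.82). Sftpc did not pass (0.73, adjusted p = 0.582), with 4 counts over the siControl and 7 over the siChchd10 libraries. The median lies at genes of such low counts, so it is uncertain. Sftpb, a surfactant protein gene, measured 3.52, 2.22, 2.15 and 2.48 CPM in siControl and 9.54, 8.83, 5.61 and 8.58 CPM in siChchd10 (1.67, adjusted p = 6.43e-06), and Muc1 rose by 1.37 and Abca3, a lipid transporter of lamellar bodies, by 0.31. Of 15 alveolar type 1 genes 6 fell and 1 rose (median -0.11), Cav1 by 0.84 and Rtkn2 by 0.73 downward. Of 19 keratins and transitional alveolar genes 10 rose and 3 fell (median 0.16), with Krt7 at 111, 108, 99.2 and 124 CPM in siControl and 206, 207, 238 and 254 CPM in siChchd10 (1.03, adjusted p = 7.58e-09) and Slc4a11 at 1.15. Muc4, a membrane mucin, rose by 2.89, one of 4 rises among 8 mucin genes.

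**Figure D5:**
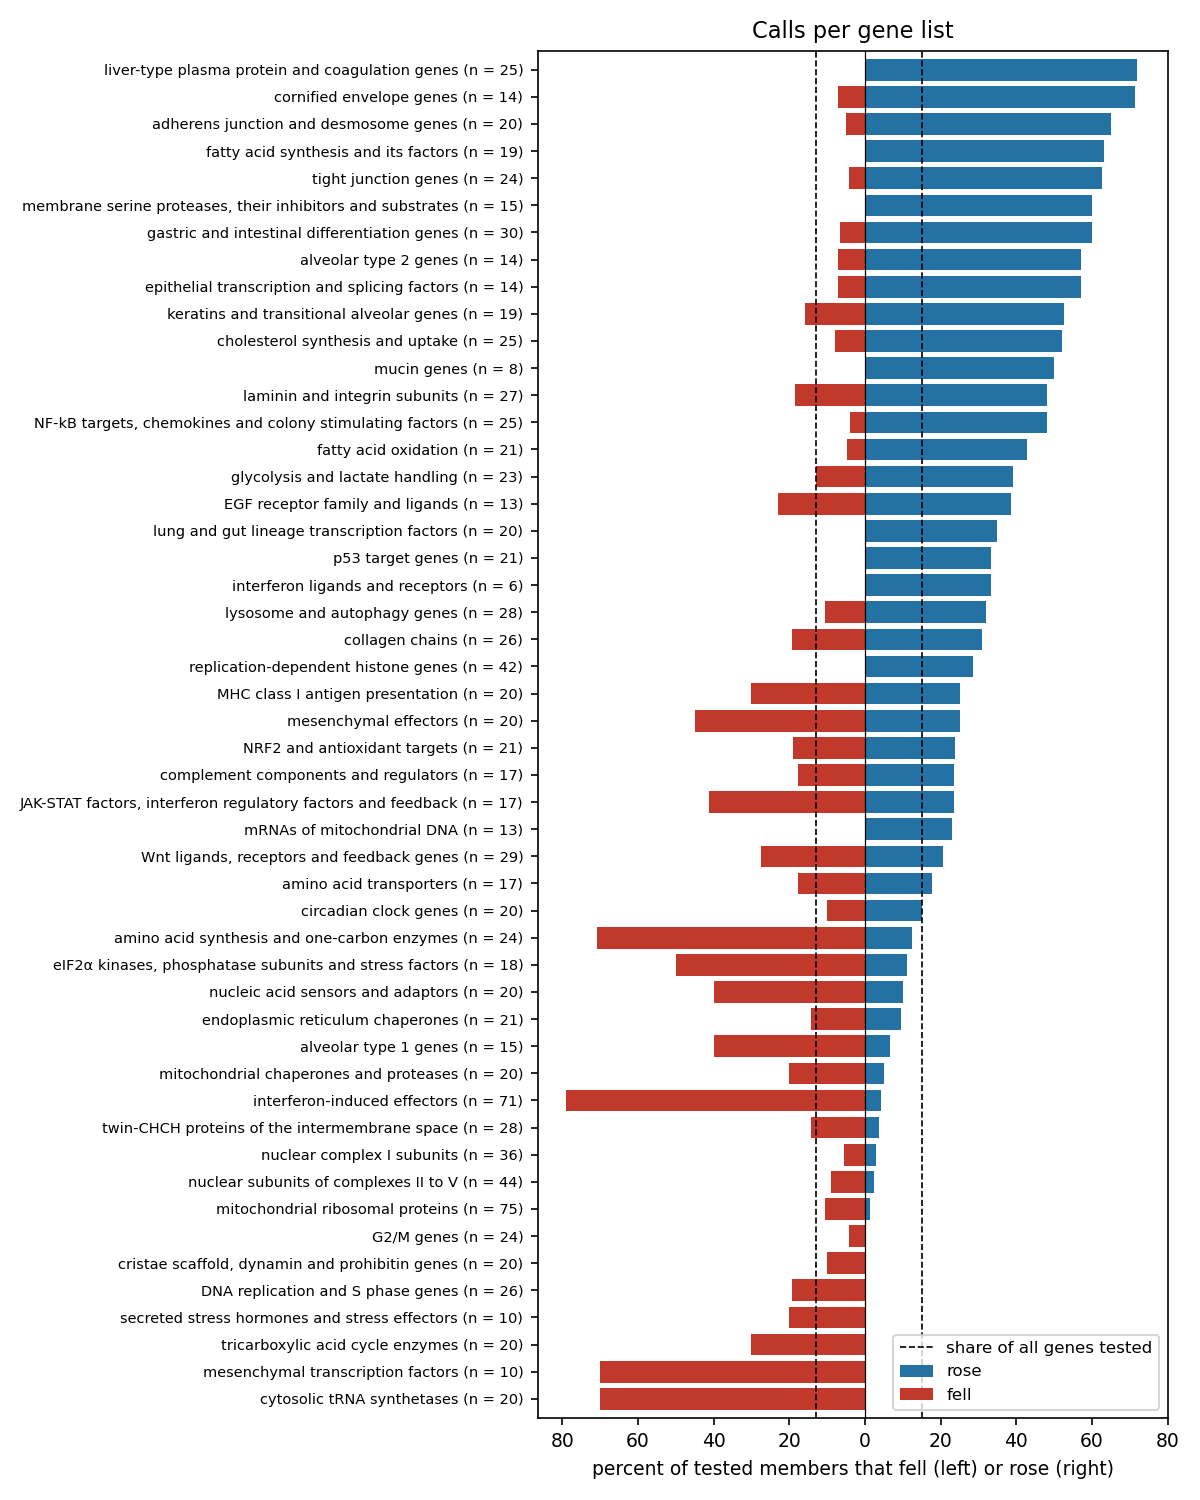
Bars give, for each gene list (vertical axis, with the number of members tested), the percent of tested members that rose (blue, right) or fell (red, left) after siChchd10 in S/S cells; dashed lines mark the shares over all genes tested, 15% and 13.0%. Liver-type, cornified envelope, junction and fatty acid synthesis lists reach furthest to the right, and interferon-induced effectors, amino acid enzymes, tRNA synthetases and mesenchymal factors furthest to the left.

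Of 19 fatty acid synthesis genes 12 rose and 0 fell (median 0.17). Fasn, fatty acid synthase, measured 705, 694, 804 and 803 CPM in siControl and 1160, 1130, 1000 and 1060 CPM in siChchd10 (0.53, adjusted p = 1.78e-06), and Mlxipl, the sugar-sensing factor ChREBP, rose by 0.67. Of 21 fatty acid oxidation genes 9 rose and 1 fell (median 0.10), and the 9 became 4 without S/S siControl 3. Cpt1a, the mitochondrial entry enzyme, rose by 0.23. Cholesterol genes gave 13 rises and 2 falls of 25 (median 0.13), and 8 rises without S/S siChchd10 1. Idi1, an isomerase of the pathway, rose by 0.37 and Insig1, which senses sterols, by 0.26. Of 23 glycolysis and lactate genes 9 rose and 3 fell (median 0.11), the glucose importer Slc2a1 by 0.36 upward. Among 21 NRF2 and antioxidant genes 5 rose and 4 fell (median 0.02), Gsta4 by 0.69 and Gclc by 0.34 upward and Cbr3 by 0.44 downward.

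Of 24 G2/M genes 1 fell and 0 rose (median 0.00), and of 26 DNA replication and S phase genes 5 fell and 0 rose (median 0.01). The 5 became 2 without S/S siChchd10 1, 3 without S/S siControl 1 or S/S siControl 4, and 8 without S/S siControl 2. Ccne1, the cyclin that starts S phase, measured 16.4, 15.4, 17.7 and 18.8 CPM in siControl and 9.90, 12.6, 12.3 and 12.8 CPM in siChchd10 (-0.52, adjusted p = 3.59e-06). Cdt1, a licensing factor, fell by 0.23. Of 21 p53 targets 7 rose and 0 fell (median 0.06). Cdkn1a, the inhibitor p21, measured 31.2, 29.0, 28.8 and 31.0 CPM in siControl and 46.2, 42.8, 42.7 and 44.7 CPM in siChchd10 (0.56, adjusted p = 1.44e-09), with no overlap, and Btg2, an antiproliferative gene, rose by 0.51. Of 42 replication-dependent histone genes 12 rose and 0 fell (median 0.26), H2bc4 by 0.92. These genes resemble each other, and their mRNAs lack a poly(A) tail. The labels name both polyA RNA and a total RNA protocol. Other RNAs without such a tail summed to 2.24 to 4.06 CPM in siControl and 1.54 to 2.69 CPM in siChchd10, with 0 of 4 tested members past the threshold. Of 13 EGF receptor family and ligand genes 5 rose and 3 fell (median 0.07), and without S/S siChchd10 4 these became 3 and 1. The receptor genes Egfr (0.36) and Erbb3 (0.39) and the ligand genes Ereg (0.38) and Tgfa (0.13) rose, the ligand gene Areg fell by 0.42, and Tgfa had an adjusted p of 0.0514 without S/S siChchd10 4. The Wnt ligand gene Wnt4 and the Wnt effector Lef1 fell by 1.27 and 1.04. Of 29 Wnt genes 8 fell and 6 rose, and the 6 became 3 without S/S siControl 1, S/S siControl 2, S/S siChchd10 1 or S/S siChchd10 2.

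The effect of siChchd10 differed between A/A and S/S cells for 35.6% of the genes tested (interaction, adjusted p under 0.05), so the changes above are those of S/S cells and need not hold in A/A cells.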

How the data were processed

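RNA of cultured mouse lung adenocarcinoma cells was sequenced by Illumina sequencing, per the labels' protocols. The authors deposited 1 table of gene counts, whole numbers that are not normalised, for the 16 siRNA libraries. The genome mm10 and DESeq2 1.24.0 are named in the submitters' processing notes. The aligner, counter and strand setting were not given in the sources used here. Reads of overlapping, antisense or near-identical genes cannot be assigned with certainty. Of 39310 rows, 18138 passed filterByExpr in edgeR 4.0.16 (R 4.3.3). Counts were scaled by TMM and fitted with robust quasi-likelihood and 1 term for each of 4 groups over the 16 libraries. Benjamini-Hochberg adjusted p under 0.05 over all genes is the threshold. The SE is the size of the log2 fold change over the square root of F. Named genes were the 15 largest rises and falls that did not overlap between groups at a mean of 10 CPM or more, up to 4 members per list and direction, every member of the small lists, and Chchd10, Atf4 and Eif2s1. Members, lists and the naming rule were chosen with earlier results of these data known. Alternatives were the S/S libraries alone, RLE and upper-quartile scaling, 2 other filters, a replicate block and DESeq2 1.42.0. Each S/S library and A/A siControl 1 were also left out, 1 at a time, and the other A/A libraries were not. On simulated data for this comparison, run on 17768 genes, 82% of genes changed 1.25-fold and 98% of those changed 2-fold were recovered. The changed genes were drawn only from those with a mean log2 CPM above 1, so these rates do not cover genes of lower level. Some genes and sequences are not reported here.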

Additional observations from a re-analysis of the deposited data

Results flagged for a closer look

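In 10 of 360 groups of 4 libraries checked for the genes named, 1 library stood apart from the other 3 by Dixon's criterion, which chance meets in about 1 of 20 groups. In S/S siControl these were Gdf15 in replicate 2 (63.8 CPM, the others 42.1 to 43.6), Ehf in replicate 2 (18.4, the others 24.3 to 25.1), Serpind1 in replicate 2 (0.0556, the others 0.149 to 0.165), Perp in replicate 3 (68.3, the others 74.6 to 75.6) and Chchd6 in replicate 4 (20.2, the others 17.0 to 17.5). In S/S siChchd10 they were Eif2ak2 in replicate 2 (39.1 CPM, the others 35.8 to 36.1), Atf6 in replicate 3 (119, the others 112 to 113), Cdt1 in replicate 4 (111, the others 97.8 to 99.8), Ifi204 in replicate 4 (8.83, the others 10.5 to 10.8) and Ifit3 in replicate 4 (2.17, the others 2.57 to 2.65).

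The siChchd10 effect differed between A/A and S/S cells, by the interaction test of edgeR, for 115 of the 178 named genes with a test. Over all genes tested the share was 35.6%. Named genes were chosen in part by the size of their S/S effect, which enters the difference, so their count cannot be read against that share. For 25 of the 115 the difference was at least 1 on the log2 scale, and the share of all genes at that size was not computed. The values below are the A/A effect minus the S/S effect on that scale. Among interferon and inflammatory genes the difference was 1.70 for Ifi44, 1.64 for Trim30a, 1.47 for Oas3 and 1.30 for Ifit3, all of which fell in S/S cells. It was -1.65 for Slfn8, -1.48 for Ikbke, -1.71 for Ccl9, 1.13 for Ccl20 and 1.73 for C3. Among epithelial and matrix genes it was -2.87 for Cldn4, -2.84 for Lama3, -1.73 for Cldn7, -1.33 for St14, -1.16 for Perp, -1.13 for both Epcam and Lamb3, and 1.93 for Prss8. Among lineage and other genes it was -2.11 for Slc4a11, -2.05 for Phgr1, -1.04 for Lgals4, 1.04 for Ccne1, 1.15 for Muc4, 1.37 for Serpind1, 1.82 for Anpep and 4.63 for Sftpc, which was close to absent in S/S cells. The A/A siControl 1 library stands apart from its group. Without it 24 of these 25 differences still passed, and that of Cldn7 was -1.09 with an adjusted p of 0.0626. The difference was tested with all S/S and A/A siRNA libraries in 1 fit.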

How the results depend on the processing

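Under 17 alternatives 3199 of 5076 calls held in each, and 0 were kept with the other sign. Leaving out 1 S/S library at a time gave 4279 to 4970 changed genes, 2321 to 2656 higher and 1928 to 2314 lower, 5872 to 6894 genes with a differing effect, and -2.81 to -2.69 for Chchd10. Of 149 called genes named, 6 (Chchd6, Opa1, ND4, Eif2ak3, Cebpb and Tgfa) lost the call in at least 1 alternative. Of those not called, 5 (COX2, Eif2ak1, Eif2s1, ND3 and Oma1) gained one in at least 1. Over S/S libraries alone 5 of 13 mitochondrial mRNAs rose, against 3. With the replicate number as a block 4703 genes were called against 5076 without it over 16 libraries, and 4623 against 4610 over the S/S libraries alone, and Chchd10 stayed at -2.76. The labels do not say that a number marks a shared culture. Deviations of same-numbered libraries correlated at -0.0808, 0.0934, -0.0769 and 0.157 for numbers 1 to 4, and not every library correlated best with its own number. At 42863650 to 53032347 counts per library, interferon ligand genes were too low to test.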

Other observations

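The genes here were chosen one by one after their values were seen, so they stand for no group. Zscan4c, a gene of the zygotic genome activation cluster, had 4 counts over the 4 siControl and 49 over the 4 siChchd10 libraries (log2 fold change 3.46, adjusted p = 3.97e-05 by edgeR), Zscan4a 11 and 53 counts, and Zscan4d 12 and 66. Pramel45 had 16 and 73 counts, and the deubiquitinase genes Usp17le and Usp17lb had 33 and 87 and 14 and 48. Members of these families are near-identical copies and can share reads, so their rises are not independent of each other.

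Alpi, the intestinal alkaline phosphatase, measured 1.77, 1.37, 1.75 and 1.56 CPM in siControl and 9.15, 8.39, 8.46 and 7.85 CPM in siChchd10 (2.39, adjusted p = 6.6e-15). Upk3a, a urothelial membrane protein gene, rose by 3.37, Fxyd3, a modulator of the sodium pump, by 3.13, S100g, an intestinal calcium carrier, by 2.40 and Gjb1, a gap junction gene of liver, by 2.33.

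The nuclear RNA Malat1 varied within both groups, at 354 to 745 CPM in siControl and 479 to 761 CPM in siChchd10, as did the ribosomal RNA gene Rn18s-rs5, at 1780 to 2830 and 1290 to 4040 CPM. Neither passed the test between groups (adjusted p = 0.533 and 0.909).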
